A study of Mus musculus with 2 samples.

Results

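Immediate early genes are genes whose transcription starts within minutes of a stimulus and needs no new protein. They were followed here as 39 named mouse genes out of the 37008 gene names on an Agilent array. All 61 non-control probes bearing 1 of these gene symbols were taken, and each gene was read from its brightest probe without a purine repeat, by the mean log2 signal of both arrays. No probe of these genes held such a repeat. RNA came from dorsal root ganglion (DRG) neurons of C57BL/6 mice with the AND T cell receptor transgene. One sample was Dock8+/-, heterozygous for the gene of an immune-cell guanine nucleotide exchange factor and labelled with a low interleukin-31 (IL-31) level. The other was Dock8-/-, labelled with a high level of this itch cytokine. Each genotype has 1 array. The Dock8+/- sample, which serves as the control, carries the transgene too and lacks 1 Dock8 copy. These samples are called heterozygote and knockout below, and their arrays shared a slide. Age, sex and the number of mice behind each array are not given in the labels.

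In resting cells these genes are held ready by serum response factor with its ELK partners and by the cyclic AMP response element binding protein CREB. Calcium entry, MAP kinases and protein kinase A switch them on. The first products are transcription factors of the AP-1, EGR, NR4A and KLF families, which pass the signal to slower genes. A further set, with phosphatases of MAP kinases and proteins that destroy short-lived mRNAs, shuts the response down again. Fos and Egr1 are used as marks of recent neuronal activity in parts of the nervous system. The same genes respond to growth factors, shear and tissue handling in glia, fibroblasts, macrophages and vessels.

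The control regions of these genes are shown first, because they carry the sites through which activity reaches them. RefSeq promoters (GRCm38.p6, 250 bases before to 50 after a start) were found for 29 of the 39 genes, with 35 promoters in all, and only the upstream bases were searched. The core of the CREB site, TGACG on either strand, lay in 21 of the 35 promoters, against 17.8% of all 32851 promoters in the table. These 21 belong to 17 genes, as some genes have several promoters. The full site TGACGTCA, which contains this core, lay in 3 promoters (8.57%) against 1.55%. An EGR site, GCGNGGGCG on either strand, lay in 12 (34.3%) against 4.7%. A CArG box, the site of serum response factor, lay in 2 (5.71%) against 1.47%. TATAAA on the gene's own strand lay in 3 (8.57%) against 7.59%. An AP-1 site, TGANTCA, lay in 1 (2.86%) against 6.75%. The upstream bases had a median GC content of 64.4% for the members and 52.4% for all promoters. These matches describe letters in a window and not bound sites.

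The stretches below (GRCm38.p6) belong to members far apart between the arrays and, for Dusp1, to the brightest of the phosphatases. Capitals mark the CREB core or full site, the EGR site and, in Fos, TATAAA, and in Nr4a1 the sites read on the opposite strand.
Fos, chr12:85473750-85473869, plus strand: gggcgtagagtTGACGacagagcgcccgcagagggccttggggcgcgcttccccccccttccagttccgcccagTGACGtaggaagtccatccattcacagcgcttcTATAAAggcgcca
Nr4a1, chr15:101266766-101266815, plus strand: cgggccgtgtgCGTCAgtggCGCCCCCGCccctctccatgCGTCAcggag
Fosb, chr7:19310076-19310115, minus strand: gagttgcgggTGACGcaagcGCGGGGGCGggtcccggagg
Junb, chr8:84978829-84978868, minus strand: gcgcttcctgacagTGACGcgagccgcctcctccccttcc
Btg2, chr1:134079266-134079335, minus strand: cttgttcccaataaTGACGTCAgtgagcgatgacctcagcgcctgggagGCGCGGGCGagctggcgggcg
Dusp1, chr17:26508593-26508672, minus strand: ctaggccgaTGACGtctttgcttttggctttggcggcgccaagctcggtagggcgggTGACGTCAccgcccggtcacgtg
Maff, chr15:79347420-79347509, plus strand: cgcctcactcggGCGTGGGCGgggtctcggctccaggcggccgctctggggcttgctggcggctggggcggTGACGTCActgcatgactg
Fos, Nr4a1, Fosb, Junb and Btg2 were at least 2-fold lower in the knockout and Maff at least 2-fold higher (lower on the spike-in scale), as given below, so the letters of the CREB core stood before members of either direction.

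The arrays differed in brightness. The 75th percentile of processed intensity was 304 in the heterozygote and 146 in the knockout. The scanner software marked 56.9% and 50.7% of probes as well above background, called detected below. Scaled log2 signal below is log2 processed intensity minus this percentile, and every difference is Dock8-/- minus Dock8+/- on that scale. The median difference of all 18524 genes measured on both arrays was 0.03. Scaling to the spike-in transcripts shifted every gene by -1.85, to a median of -1.83. Of the 5 Dock8 probes, 1 was detected in the heterozygote, at a faint 20.5, and 0 in the knockout, which is too dim to check the labels. All 15 neuron markers were measured on both arrays, with a median difference of 0.15. With 1 array per genotype there is no test, and a 2-fold difference is used only as a description of size.

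Of the 39 members, 35 were detected in both samples and are called measured. Npas4 and Ptgs2 were detected in the heterozygote alone, and Fosl1 and Egr4 in neither. Of the 35, 9 were at least 2-fold lower in the knockout (25.7%), against 7.08% of all measured genes. At least 2-fold higher were 2 (5.71%), against 8.75%. These shares of all genes, lower and higher, became 11.5% and 4.999% when scaled to the median of all probes, 8.27% and 6.59% with loess, 4.67% and 3.42% with normexp background correction, and 87.7% and 0.124% on the spike-in scale. The members lower and higher were then 10 and 1 with median scaling, 9 and 2 with loess, 6 and 1 with normexp, and 33 and 0 on the spike-in scale. At a size of 1.5-fold 12 members were lower and 7 higher, against 16.9% and 20.6% of all genes. By any amount 20 were lower and 15 higher, where 48.3% of all genes were lower. The median member differed by -0.13, close to the 0.03 of all genes. The members were thus spread in both directions, with a median absolute difference of 0.64 against 0.43 for all genes, and those far apart were mostly lower. In processed intensity, without scaling, 33 of the 35 were dimmer in the knockout, as were 92.5% of all measured genes. In such bulk samples fewer cells of a type and less RNA per cell cannot be told apart.

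**Figure D1:**
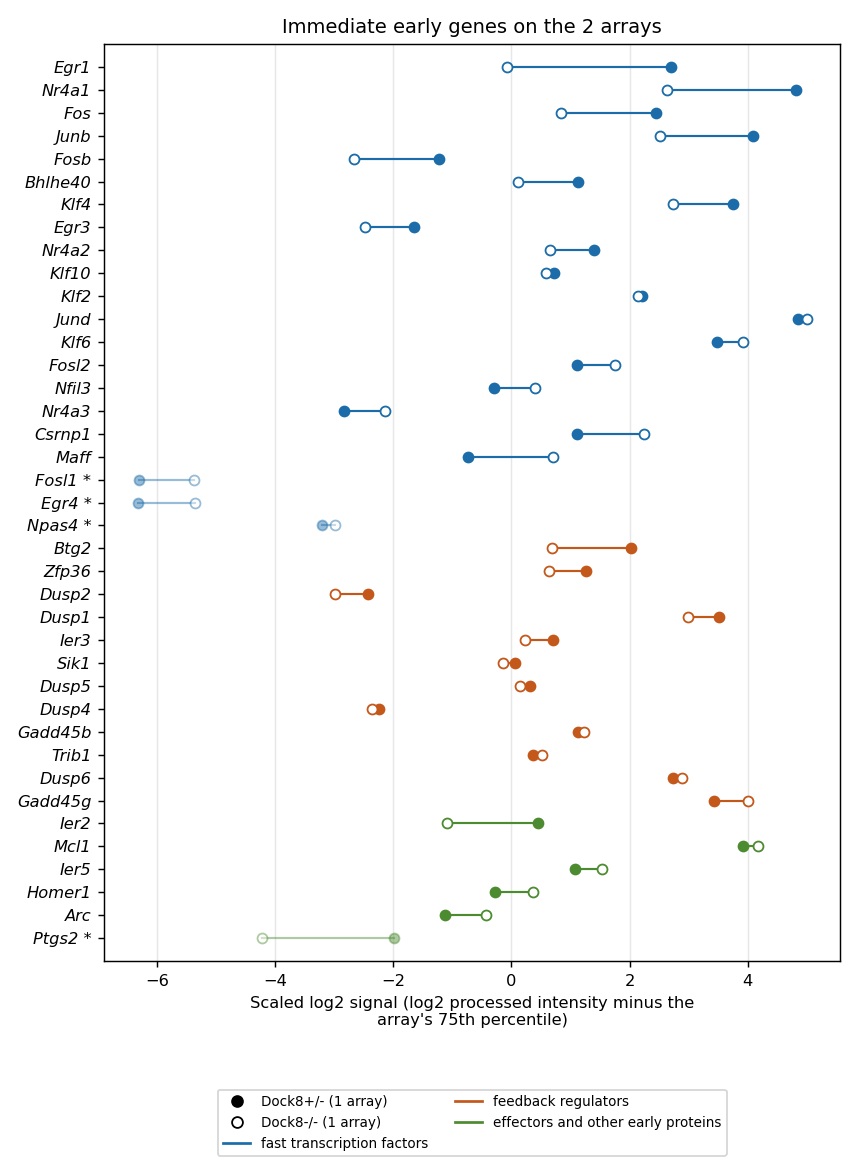
Scaled log2 signal of each member on the Dock8+/- array (filled) and the Dock8-/- array (open), coloured by role, with 1 array per genotype. A star marks the 4 members not detected in both. Egr1 and Nr4a1 have the longest lines, from 2.71 to -0.08 and from 4.82 to 2.64.

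Fast transcription factors held 7 of the 9 lower members and both higher ones. These were 38.9% and 11.1% of the measured factors, against 7.08% and 8.75% of all measured genes. Of the 21 factors 18 were measured, with a median difference of -0.44, from -2.79 for Egr1 to 1.45 for Maff. Feedback regulators lay closer together, with 12 of 12 measured, a median of -0.18 and a range from -1.34 to 0.58. The median absolute difference was 0.92 for the factors and 0.33 for the feedback regulators, against 0.43 for all genes. The order of the signed medians, -0.44 and -0.18, depended on the settings. The factors were at -0.07 with no filter on dim probes, where the median of all genes rose to 0.43. The factors were at -0.13 with the scanner's positive-and-significant flag or without probes holding a dinucleotide run. The feedback regulators stayed at -0.18 in these settings. Less the median of all genes, the factors were at -0.46 and the feedback regulators at -0.21 with the filter. Without it these values were -0.50 and -0.61. Whether these classes differ could not be tested with 1 array per genotype.

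The EGR zinc-finger factors gave the largest difference. Egr1, read at chr18:35024395-35024454 (mm9), had a processed intensity of 1986 in the heterozygote and 138 in the knockout, and was 6.92-fold lower after scaling. It ranked 58 from the lowest of 18524 genes. Egr3, a factor needed for muscle spindles, had intensities of 96.5 and 26.1 and a difference of -0.83. The second value is close to 16.1, the lowest intensity of any detected probe on that array. Under normexp, which adds 50 to every intensity after background subtraction, the difference was -0.02. A further Egr3 probe read 33.8 in the heterozygote and 4.40, not detected, in the knockout. The only Egr4 probe read 3.78 and 3.54.

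The orphan nuclear receptors of the NR4A family were spread widely. Nr4a1, which encodes NUR77, was bright on both arrays, with 8611 and 907 at chr15:101105071-101105130 (mm9), and was 4.55-fold lower in the knockout. Nr4a2, which encodes NURR1, read 800.3 and 228 on its brightest probe, a difference of -0.75. Its other probe, lying upstream in the transcript, read 723 and 118, a difference of -1.55. Both Nr4a2 probes were lower, the second past 2-fold, but the counts use the brightest one. Nr4a3, which encodes NOR1, read 42.8 and 33.1 on the probe with the highest mean log2 signal, a difference of 0.69 (-1.16 on the spike-in scale). A second Nr4a3 probe read 74.5 in the heterozygote and 5.25, not detected, in the knockout. The probes disagree, so no direction is given for Nr4a3, although its first probe is counted among the 7 members higher at 1.5-fold.

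AP-1 is a dimer of a FOS and a JUN family protein, and its subunits split. Fos, at chr12:86818118-86818177 (mm9), read 1658 in the heterozygote and 259 in the knockout, 3.07-fold lower. Junb, at chr8:87500843-87500902 (mm9), read 5162 and 835, 2.96-fold lower. That probe holds a run of GT, and the other pair of Junb probes, at 105 and 55.0 in the heterozygote, were not detected in the knockout. Fosb read 131 and 22.9, 2.74-fold lower, with the second value near background, and its difference was -0.36 under normexp. Fos and Junb were at least 2-fold lower under that setting too.

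Jund and Fosl2, the subunits with steadier expression, were not lower on the 75th percentile scale. Jund was the brightest member, at 8752 and 4669, a difference of 0.16 (-0.07 when scaled to the median of all probes), and its other probe gave 0.03. Fosl2, which encodes FRA2, read 653 and 489, a difference of 0.64. On the spike-in scale Jund was at -1.70 and Fosl2 at -1.21, lower like nearly all genes. Fosl1, which encodes FRA1, read 3.86 and 3.53, not detected. Jun, which is no member, read 4774 and 3588, a difference of 0.65, and so lay with Fosl2 and not with Junb.

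KLF zinc-finger factors followed no common direction. Klf4, which holds cells in a quiescent or undifferentiated state and is an early gene of vessels and fibroblasts, read 4072 and 972, a difference of -1.01. Klf10, an early gene of TGF-beta signalling, differed by -0.13. Klf2, known from endothelium under flow, read 1401 and 639.6, a difference of -0.07. Klf6, a factor induced by tissue injury, read 3381 and 2210, a difference of 0.45, which was -1.40 on the spike-in scale.

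Among the remaining factors, Bhlhe40 was lower and 3 others higher on the 75th percentile scale. Bhlhe40, a repressor that also acts in the circadian clock, read 665 and 158, a difference of -1.01. Maff, a small MAF protein, read 183 and 238, 2.72-fold higher after scaling. Csrnp1, a cysteine- and serine-rich nuclear protein, read 652 and 690.3, 2.21-fold higher. Maff and Csrnp1 were the only members of the 35 with a higher processed intensity on the dimmer knockout array, and on the spike-in scale they lay at -0.41 and -0.71. Nfil3, a leucine zipper repressor, read 248 and 191, a difference of 0.68, which was -1.17 on the spike-in scale. Npas4, the factor most closely tied to neuronal calcium entry, read 32.8 in the heterozygote and 18.4, not detected, in the knockout. The scaled difference of these readings, 0.23, rests on an undetected value, so no direction or fold is given.

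**Figure D2:**
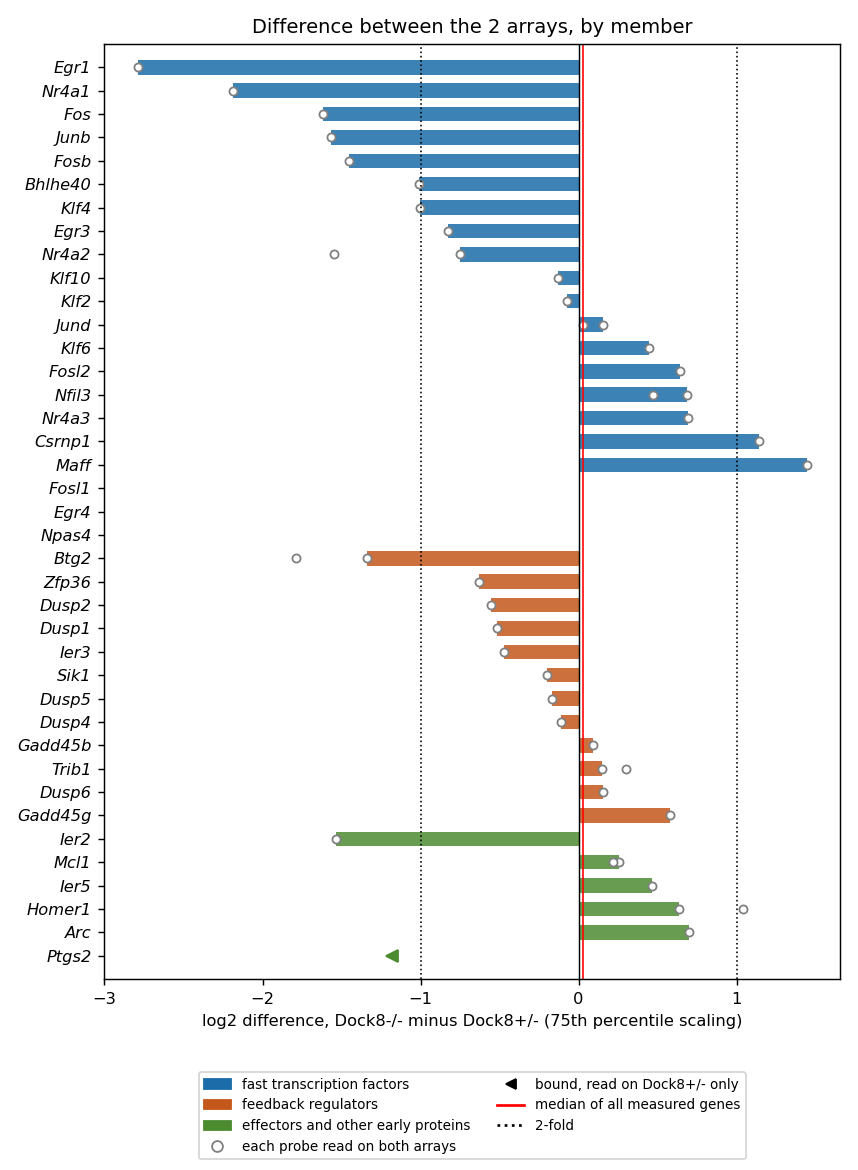
Difference of each member between the arrays (log2, Dock8-/- minus Dock8+/-, 75th percentile scaling) as bars coloured by role, with each probe read on both arrays as a circle, a triangle for the Ptgs2 bound and no bar for Npas4, Fosl1 and Egr4. The red line is the median of all genes, 0.03, and the dotted lines are 2-fold: 9 bars reach the left line and 2, Maff and Csrnp1, the right one, though these 2 lie below 0 on the spike-in scale.

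Feedback regulators had a smaller median absolute difference than the factors on the 75th percentile scale, 0.33 against 0.92. That of all genes was 0.43. Btg2, an antiproliferative partner of the mRNA deadenylation complex, had intensities of 1236 and 234 and was 2.53-fold lower. No other regulator was 2-fold apart on that scale, so 8.33% of the 12 were lower and 0 higher. Over all measured genes these shares were 7.08% and 8.75%. A second Btg2 probe, at 543 and 75.3, gave -1.79. Zfp36 encodes tristetraprolin, which binds AU-rich elements and speeds decay of early mRNAs. It read 732 and 226, a difference of -0.63. Ier3, a target and modulator of ERK signalling, read 495.5 and 171, a difference of -0.47.

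The dual-specificity phosphatases lay within 1.5-fold on the 75th percentile scale. Dusp1, which inactivates p38, JNK and ERK in the nucleus, read 3465 and 1161, a difference of -0.52, and -0.74 when scaled to the median of all probes. Dusp2 read 56.5 and 18.4, both low in signal, with -0.55. The nuclear ERK phosphatases Dusp4 and Dusp5 differed by -0.11 and -0.17, and the cytoplasmic ERK phosphatase Dusp6, at 2030 and 1083, by 0.16 (-0.07 when scaled to the median of all probes). Under normexp, a model-based background subtraction that then adds 50 to every intensity, Dusp2 was at 0.23 and Dusp4 at 0.35. The added constant draws dim intensities together before scaling, so these signs were not read as directions. With loess, quantile normalisation and the authors' value table Dusp2 was at -0.88, -0.76 and -0.77, past 1.5-fold.

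Of the remaining regulators, Gadd45g was set apart from Sik1, Trib1 and Gadd45b. Sik1, a kinase that holds CREB coactivators out of the nucleus, differed by -0.20. The pseudokinase gene Trib1 differed by 0.15 and the stress gene Gadd45b by 0.09, and both turned negative when the median of all probes was used for scaling, at -0.08 and -0.14. Gadd45g, of the same stress gene family, at 3272 and 2337, was the highest of this class at 0.58, and -1.27 on the spike-in scale.

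AU-rich stretches, the target of tristetraprolin, were visible in the probe letters of several members. The letters ATTTA occurred in 13.1% of the 61 member probes and 8.08% of all 56601 probes, and the longer TATTTAT in 6.56% and 1.08%. The 4 genes with the longer form were Btg2, Dusp1, Ier3 and Zfp36, all feedback regulators, with differences of -1.34, -0.52, -0.47 and -0.63. Their stretches of 30 bases are given with mm9 positions and ATTTA in capitals.
Dusp1, chr17:26642624-26642653, minus strand: acagttgtatgtttgtttATTTAtgatctg
Zfp36, chr7:29161978-29162007, minus strand: ccctttATTTAtgacgactttATTTAttgt
Btg2, chr1:135973828-135973857, minus strand: ttaaaatgaagagctATTTAtacatgtctt
Ier3, chr17:35959533-35959562, plus strand: taacacagatATTTAttacgATTTAtaggg
A probe covers 60 bases of a transcript, so the count says where probes lie as much as what the mRNAs hold.

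Effectors and other early proteins were mostly above 0, with a median of 0.46 over 5 measured members, which was -1.39 on the spike-in scale. Ier2, a small nuclear protein induced together with Fos and Junb, was the exception, with 415 and 68.5 and a 2.90-fold lower value. Arc, which controls AMPA receptor uptake at synapses, read 139 and 108, a difference of 0.70. Homer1, a scaffold of group I metabotropic glutamate receptors, read 251 and 187 on its brightest probe, a difference of 0.64. A Homer1 probe at chr13:94116595-94116654 (mm9), upstream of the other 3 in the gene, read 81.4 and 80.2, a difference of 1.04. That probe passed 2-fold, but the counts use the brightest one. Which Homer1 isoform each probe reads was not examined. Ier5 differed by 0.46 and Mcl1, an anti-apoptotic BCL2 relative, by 0.25, at 4594 and 2626. On the spike-in scale Arc, Homer1, Ier5 and Mcl1 lay between -1.60 and -1.15. Ptgs2, which encodes cyclooxygenase 2, read 76.3 in the heterozygote and 7.84, not detected, in the knockout. Against the lowest detected intensity of the knockout array it was at least 2.27-fold lower. Of the 2540 genes detected in the heterozygote alone, 17.6% reached a bound of 2-fold.

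**Figure D3:**
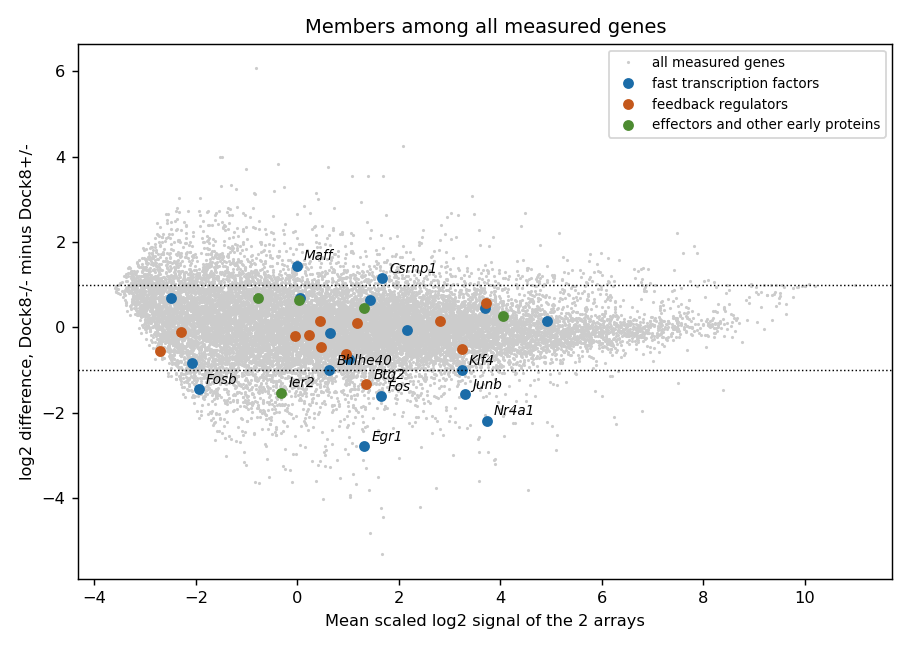
Difference against mean scaled log2 signal for all 18524 measured genes (grey) and the measured members (coloured by role), with names for members at least 2-fold apart and dotted lines at 2-fold. The lower members span the range from dim (Fosb) to bright (Nr4a1), and 6 of them lie in the brighter part of the measured genes.

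The lower members were found among dim and bright genes. Of the 19 members no dimmer than the median measured gene, 6 were at least 2-fold lower, where 5.13% of all such genes were. These 6 were Egr1, Nr4a1, Fos, Junb, Klf4 and Btg2. Fosb, Bhlhe40 and Ier2 lay below that signal. Their differences under normexp were -0.36, -0.91 and -0.98, short of 2-fold. The 50 added under that setting weighs most on dim values.

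Signal-dependent regulators upstream of the members were all measured and went in both directions. The median of 28 genes was 0.06 and the median absolute difference 0.54, against 0.43 for all genes. At 1.5-fold 4 were lower and 8 higher, against 16.9% and 20.6% of all measured genes. In each direction 1 gene (3.57%) passed 2-fold, against 7.08% lower and 8.75% higher over all genes. Mef2c, a calcium-responsive MADS box factor also expressed in macrophages and vessels, differed by -1.06. Elk4, an ETS partner of serum response factor, was 3.14-fold higher on its brightest probe, but its probes ranged from -0.34 to 1.89. The related gene Elk1 differed by 0.95, with probes from 0.12 to 0.95 and an intensity of 202954 and 187831 on the brightest, and the CREB kinase gene Camk4 by 0.91.

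Early genes outside the member list went in both directions. The median of 20 measured was 0.28, with 2 (10%) past 2-fold in each direction. Of all measured genes 7.08% were lower and 8.75% higher by that size. Ccn1, a matrix protein of fibroblasts and vessels, read 1015 and 135, 3.61-fold lower. Rgs2, a brake on Gq signalling, was 2.10-fold lower. Nfkbia, the NF-kappaB inhibitor, read 4408 and 5544, 2.63-fold higher, and Errfi1, an inhibitor of EGF receptor signalling, was 2.02-fold higher. Delayed activity genes of neurons had a median of 0.66 over 9 measured genes, with 2 (22.2%) past 2-fold upward and 0 downward. Inhba, a subunit gene of activin and outside these 9, read 95.0 in the heterozygote and 19.6, not detected, in the knockout. By a bound taken from this 19.6, which is above the lowest detected intensity there, Inhba was at least 2.32-fold lower. Cdkn1a, the p21 cell cycle inhibitor, was 3.07-fold and Bdnf, a secreted neurotrophin, 2.80-fold higher, followed by Vgf at 0.76 and Scg2 at 0.68. Heat shock genes had a median of -0.10 over 11, with 0 at least 2-fold apart. Hsph1 was at -0.91, Hspa1a at -0.60, Hspe1 at -0.58 and Hsp90aa1 at 0.47. The spike-in shift of -1.85 applies to each of these values and puts all of them below 0.

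**Figure D4:**
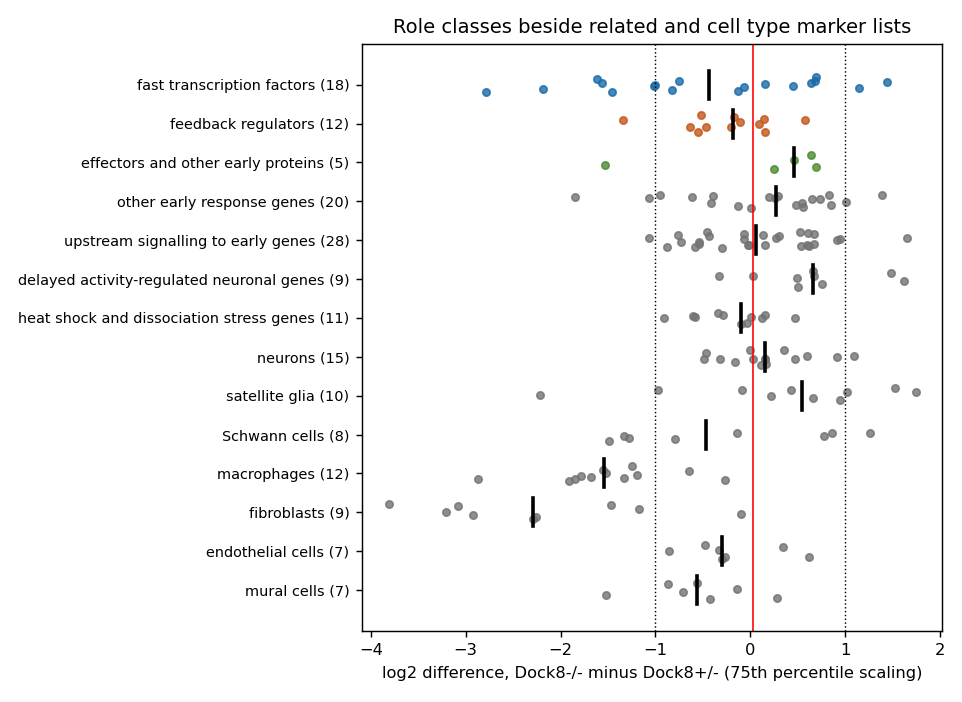
Log2 difference (Dock8-/- minus Dock8+/-, 75th percentile scaling) of each measured gene of the 3 role classes (coloured) and of related and marker lists (grey), with the number of genes in brackets. Thick bars are list medians, the red line is the median of all genes, 0.03, and dotted lines are 2-fold. Macrophage and fibroblast markers lie furthest left, at medians of -1.54 and -2.30.

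Markers of macrophages and fibroblasts were lower in the knockout beside the lower members, while those of satellite glia were mostly higher on the 75th percentile scale. Of 13 macrophage markers, 12 were measured. All 12 were lower, 10 by 2-fold or more (83.3%, against 7.08% of all measured genes), and their median was -1.54. Over all 13, the summed unscaled intensity was 48616 in the heterozygote and 6308 in the knockout, where Fcgr1 was not detected. Divided by each array's 75th percentile, these sums were 160 and 43.3. Of 10 fibroblast markers, 9 were measured and 8 of these were lower by 2-fold or more. The median of these 9 was -2.30. Over all 10, the unscaled sums were 296345 and 39371, or 975 and 270 after the same division. Dpt was not detected in the knockout. Mural cell markers had a median of -0.56 over 7 and endothelial markers -0.30 over 7. Satellite glia markers had a median of 0.55 over 10, with 3 past 2-fold upward (30%, against 8.75% of all measured genes) and Fabp7 at -2.21. The part of these cells in the lower signals of Egr1, Fos or Nr4a1 was not tested.

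The labelled neurons therefore came with RNA of several other ganglion cell types on both arrays. Skeletal muscle markers, 4 measured of 9, had a median of -3.95, and a further 4 were detected in the heterozygote alone. Of these other lists, neutrophil markers had a median of 0.25 over 6 and T cell markers 0.34 over 3. Cd3g and Cd8a were detected on neither array and Cd3d in the heterozygote alone. Erythroid markers had a median of -1.38 over 2 and Schwann cell markers -0.47 over 8. Spinal cord markers had a median of 1.35 over 5, from -1.20 for Slc6a5 to 3.07 for Gfap.

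**Figure D5:**
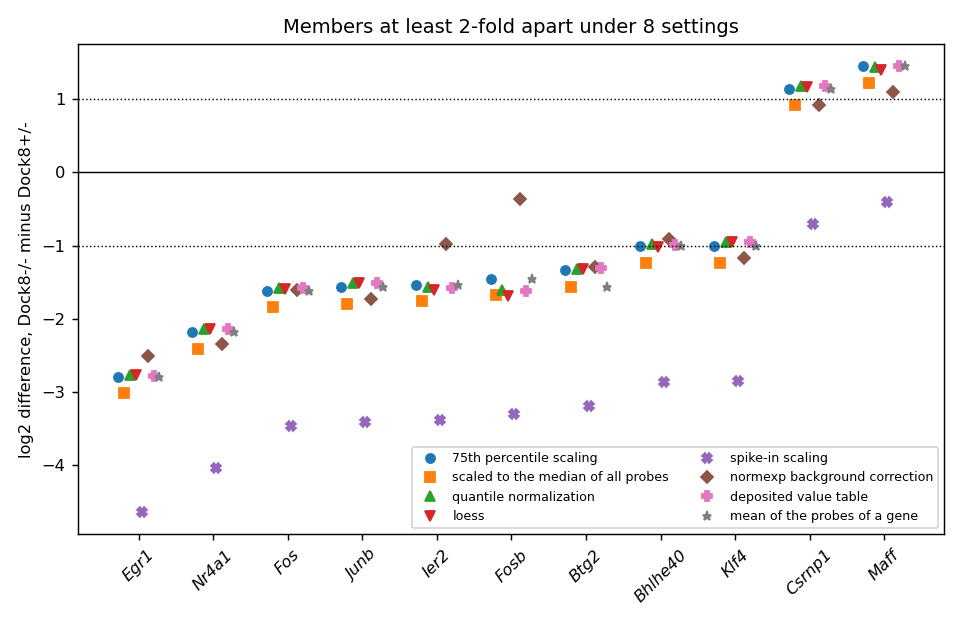
Log2 difference of the 11 members at least 2-fold apart under 8 settings, 1 marker per setting, with dotted lines at 2-fold. Egr1, Nr4a1, Fos, Junb and Btg2 stay below the lower line in all 8, Fosb rises to -0.36 under normexp, and Maff and Csrnp1 lie below 0 under spike-in scaling.

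The lower calls for Egr1, Nr4a1, Fos and Btg2 rested on probes that were at least 2-fold lower under each scaling and background setting tried. Klf4 and Bhlhe40, at -1.01 each, lay at the edge of the 2-fold size. The number of arrays limits the precision of all these values, and how far 2 samples of 1 genotype would differ is unknown here.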

How the data were processed

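Gene expression in DRG neurons was measured on 1 one-colour (Cy3) Agilent array per genotype. The deposited scanner files hold intensity on a linear scale, made with Agilent Feature Extraction 10.7.1.1 per the file headers (9.5.1.1 per the submitters' processing notes). Per the file headers, the processed intensity had spatial and multiplicative detrending, and surrogate values stand in for the dimmest signals. The authors' value table holds intensity with equal sorted values in 98.9% of ranks (tolerance 0) and a median of 27.9 in both columns, hence quantile normalised, in the direction of intensity, with no centring between genes seen. It served as an alternative.

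Non-uniform spots were left out (3 and 1), and 0 were saturated. Log2 intensity minus each array's 75th percentile was used. Probes with 4 or more GA or GAA units were left out, and a gene counted as measured when the scanner software marked its brightest remaining probe as well above background in both samples. Probe positions are those of the files (mm9), whose exon and UTR annotation was not used here. Probes outside the member list were named by RefSeq accession (32938), symbol (10215), older symbol (520) or the file's name (12867). Spots of 298 probes printed 10 times had an SD of 0.0435 and 0.0463, or 0.0635 for a difference. Every member probe was a single spot.

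A single array per genotype allows no test. By the naming rule, both values are given for members at least 1.5-fold apart, detected in 1 sample, or least different in a class, and up to 4 genes with the largest differences are named per other list. Values of further members, Jun and Fabp7 were added after they were seen. Members, role classes and lists were chosen with earlier results of these data known. The code was tested on simulated data. R 4.3.3 with limma 3.58.1 and Python 3.11.15 were used. Alternatives were other scalings, normexp (offset 50), loess (span 0.3), the value table, other probe choices, filters and thresholds.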

Additional observations from a re-analysis of the deposited data

How the results depend on the processing

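No paired analysis was possible because a genotype has 1 array, and no replicate could be left out. The 9 lower members were 7 with the 75th percentile of probes detected on both arrays, under quantile normalisation and with the value table (without Klf4 and Bhlhe40), 6 under normexp, 10 with median scaling, and 8 without probes holding any dinucleotide run, a setting chosen after seeing the data. Spike-in scaling, which put the median of all genes at -1.83, gave 33 lower, and a 3-fold size gave 3. The 2 higher members were 1 with median scaling, normexp or brighter genes alone, 0 with spike-in scaling or 3-fold, and 7 with 1.5-fold. The member median of -0.13 became -0.36 with median scaling (all genes -0.20), -0.20 with loess, -1.98 with spike-ins and -0.056 with normexp. That of the factors, -0.44, became -0.67, -2.29 and -0.20 with median, spike-in and normexp scaling. With no filter on dim probes it was -0.070, where all genes were at 0.43. It was -0.13 with the other detection flag, -0.75 for brighter genes and -0.13 without dinucleotide runs. That of feedback regulators, -0.18, became -0.41, -0.25, -0.32, -2.04, -0.090 and -0.25 with median scaling, quantile normalisation, loess, spike-ins, normexp and the value table. Under spike-ins the effector median turned to -1.39, Maff to -0.41 and Csrnp1 to -0.71. Constant scalings move all genes alike. The filters and the dinucleotide setting kept the value of each counted member and changed which members were counted. These were 39 with no filter, 37 with the other flag, 19 for brighter genes and 34 without dinucleotide runs, against 35. For the remaining settings the cause was not tested. The dim members Fosb, Egr3, Dusp2 and Dusp4 moved under normexp to -0.36, -0.02, 0.23 and 0.35. Nr4a3, at 33.1 in the knockout, was at 0.65 there against 0.69 on the 75th percentile scale.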

Other observations

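Probes of 1 member did not always rise above background together. Of the 7 members with several probes measured on both arrays, 7 had the same sign on all of these probes (Jund, Nr4a2, Nfil3, Btg2, Trib1, Homer1 and Mcl1). A further Fosl2 probe was detected in the knockout alone, at 54.8 against 21.02. A further Dusp4 probe was detected in the heterozygote alone, at 24.3 against 5.87. A Trib1 probe on the opposite strand read 20.6 in the heterozygote and 5.60, not detected, in the knockout.

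The CArG boxes lay before Zfp36, with 1 box, and Dusp5, with 2, and these genes differed by -0.63 and -0.17.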
